A study of Saccharomyces cerevisiae W303 with 16 samples.

Results

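The heat shift of wild-type *SUP45* cells was followed by RNA-Seq in 4 of the 16 libraries of a study of translation termination in *Saccharomyces cerevisiae*. The libraries were chosen by their labels, as all RNA-Seq libraries of the wild type, 2 from cells at 37°C and 2 from cells at 25°C. Both groups came from strain HFY114, a haploid MATa strain of the W303 background with the wild-type allele of *SUP45*, the gene of the release factor eRF1. The strain carries mutant marker alleles of *ADE2*, *HIS3*, *LEU2*, *TRP1*, *URA3* and *CAN1*, so it is auxotrophic for adenine, histidine, leucine, tryptophan and uracil. Cells grew in rich glucose medium (YPD) at 25°C, were spun down and put in fresh medium, and then received hot YPD and 30 min in a bath at 37°C. The mock-shifted cells went through the same steps with medium and bath at 25°C. The other libraries of the study are 4 RNA-Seq libraries of *sup45-ts* cells, which carry a temperature-sensitive eRF1, and 8 ribosome profiling libraries of both strains.

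Yeast answers a rise in temperature mainly through 2 sets of transcription factors. Hsf1 drives genes of chaperones, which hold, refold or pull apart misfolded proteins, and the paired factors Msn2 and Msn4 drive a general stress programme of carbohydrate storage, redox defence and membrane protection. At the same time genes for ribosomal proteins and for ribosome assembly, which take up much of transcription in growing cells, are known to be turned down for a while. W303 cells grow at 37°C, so the shift is a mild heat shock rather than a lethal one.

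The 4 libraries held between 107324550 and 153654244 expected counts, and the 2 replicates of a temperature correlated at 0.999 at 37°C and 0.998 at 25°C (Pearson's r of log2 CPM, counts scaled to the library size). No pair of replicates agreed within sampling noise, so each library counted as 1 replicate. Separate cultures are not stated for the replicates, so p-values measure the spread between these libraries, which may be technical. The RNA carried the markers of MATa cells. *STE2*, the receptor for alpha-factor, had 253 and 260.1 FPKM at 37°C, against 431 and 404 FPKM at 25°C. Of the 6 MATa genes checked 5, *STE2* among them, fell (median -0.74), where 37.4% of all transcripts were called lower. Scaled to the total count alone, 2 of the 6 were called lower and 1 higher (median -0.19). The a-factor genes *MFA1* and *MFA2* changed by -1.04 ± 0.13 and -0.96 ± 0.11. Of the MATalpha genes, *MF(ALPHA)1*, the main alpha-factor gene, had 0.296 and 0.414 FPKM at 37°C, against 1.39 and 1.33 FPKM at 25°C, and *SAG1*, the highest of the 4, had 7.06 and 7.68 FPKM at 37°C, against 6.76 and 6.00 FPKM at 25°C. The minor alpha-factor gene *MF(ALPHA)2* stayed under 1 FPKM (-2.01 ± 0.43). *STE3*, the receptor for a-factor, rose, with 3.38 and 3.85 FPKM at 37°C, against 0.506 and 0.571 FPKM at 25°C. Of 6 sporulation genes 5 rose, from and to low levels, the highest being *IME2* with 4.26 and 4.29 FPKM at 37°C, against 2.14 and 2.43 FPKM at 25°C and the largest changes those of *SPR3* (1.71 ± 0.17) and *IME1* (1.57 ± 0.17), while *SPS1* fell (-0.52 ± 0.13, or 0.025 scaled to the total count alone). Levels are given as FPKM, here expected counts per kilobase of effective transcript length and per library size after TMM scaling (a scaling of edgeR that sets the bulk of transcripts to no change), so that levels of different genes can be compared. Changes are log2 fold changes of 37°C over 25°C with their standard error from edgeR's quasi-likelihood test, and a transcript is called where its Benjamini-Hochberg adjusted p over all transcripts is under 0.05.

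The shift reached most of the transcriptome within 30 min. Of 6767 transcripts tested, 5131 (75.8%) were called, 2601 (38.4%) higher and 2530 (37.4%) lower at 37°C. A change of at least 2-fold was called for 1029 transcripts (15.2%) that rose and 953 (14.1%) that fell, and of at least 4-fold for 387 that rose and 309 that fell. The median log2 change over all transcripts was 0.0096, and 5% of transcripts lay below -1.93 and 5% above 2.17. Because a call of any size is so common, the counts of list members are best read against these background shares.

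The make-up of the RNA turned over with it. Transcripts of cytosolic ribosomal proteins took 4.10 and 4.33% of all counts at 37°C, against 22.7 and 25.3% at 25°C. Chaperone transcripts took 14.4 and 13.5% at 37°C, against 3.62 and 3.41% at 25°C, so that chaperones and ribosomal proteins changed places as the larger class by counts. Counts are not divided by transcript length here, so these are not shares of molecules. Translation factors took 3.57 and 3.38% at 37°C, against 7.91 and 7.50% at 25°C, and the general stress, trehalose and glycogen genes 1.76 and 1.93% at 37°C, against 0.127 and 0.107% at 25°C. In each of these classes both libraries at 37°C lay on the same side of both libraries at 25°C.

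**Figure D1:**
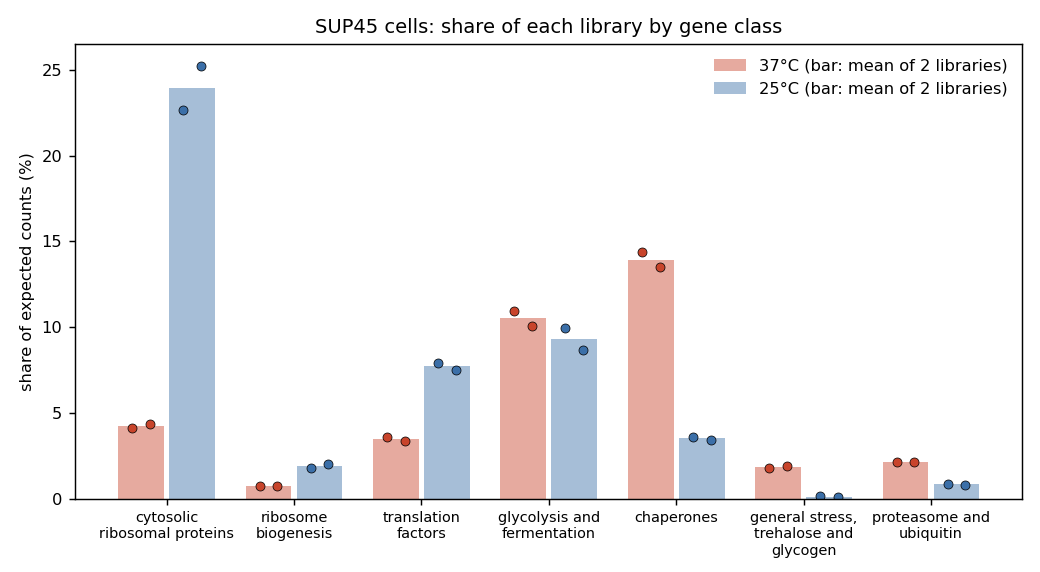
Share of all expected counts in each library (y axis, percent) for 7 gene classes (x axis) in *SUP45* cells at 37°C and 25°C, with 1 point per library and bars at the mean of 2 libraries. Ribosomal proteins stood at 4.10 and 4.33% at 37°C against 22.7 and 25.3% at 25°C, and chaperones at 14.4 and 13.5% at 37°C against 3.62 and 3.41% at 25°C.

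Such a turnover bears on the scale of every fold change. The TMM factors were 1.20 and 1.26 at 37°C against 0.833 and 0.849 at 25°C. Scaled to the total count alone, 4307 transcripts were called higher and 1218 lower, and the median of all transcripts moved to 0.56. With upper quartile scaling it moved to 0.12. No spike-in is given in the sources used here, so each change is relative to the other transcripts, and less RNA per cell, fewer cells and a changed share of RNA cannot be told apart.

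**Figure D2:**
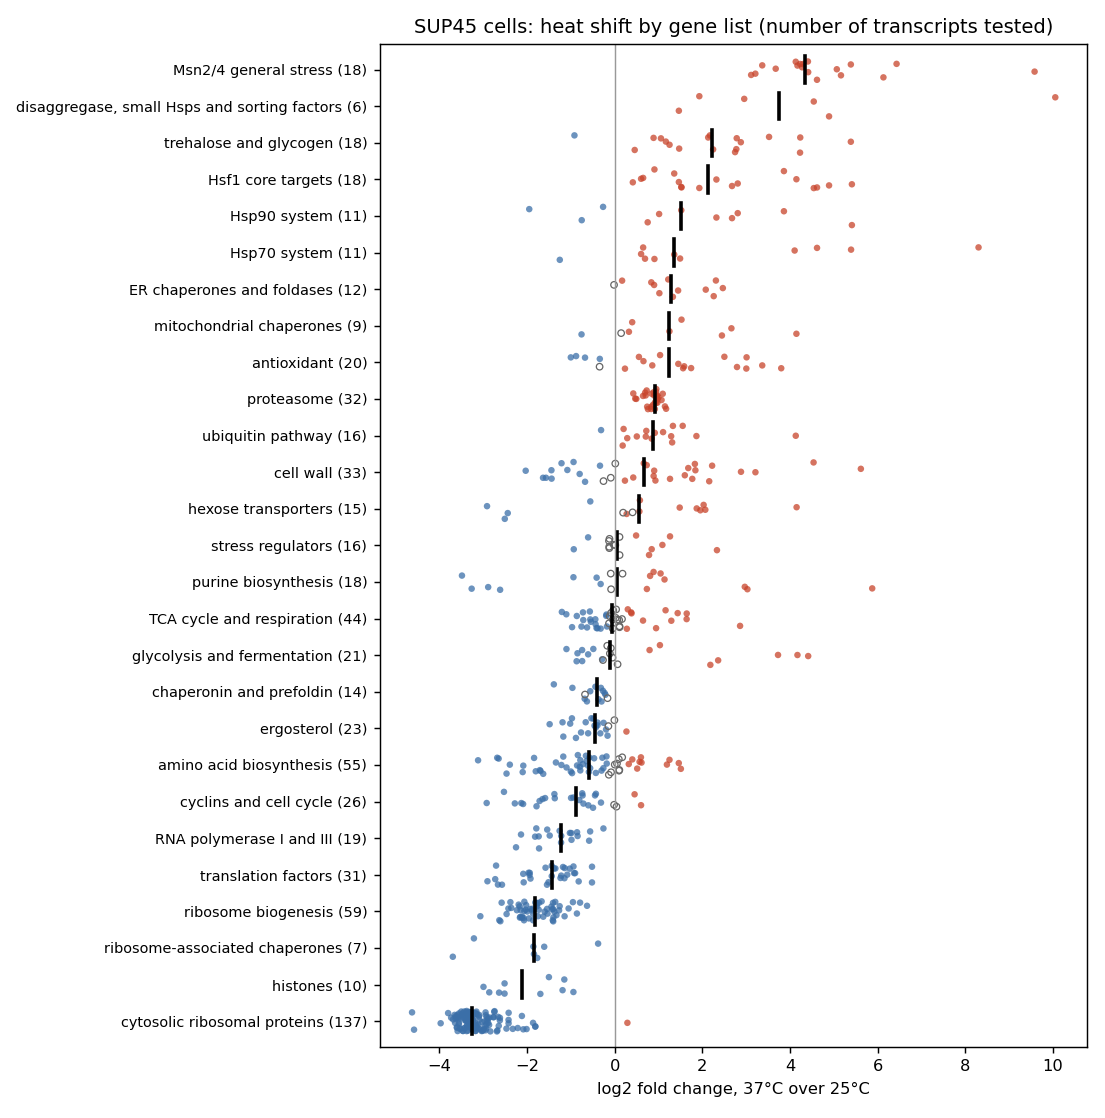
Log2 fold change of 37°C over 25°C (x axis) for every tested transcript of 27 gene lists (rows, with the number tested), 1 point per transcript. Filled red and blue points were called higher and lower at 37°C, open points were not called, and black bars mark list medians, which ran from -3.25 for cytosolic ribosomal proteins to 4.35 for the Msn2/4 genes.

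The largest rises were of heat shock and general stress genes. *HSP26* (YBR072W, chromosome II, 382030 to 382674 in the R64 assembly), a small heat shock protein that traps unfolded proteins, had 7598 and 7474 FPKM at 37°C, against 4.03 and 10.3 FPKM at 25°C, a log2 change of 10.05 ± 0.44 (edgeR adjusted p = 3.25e-08). *HSP12* (YFL014W, chromosome VI, 107256 to 107585), a small protein that binds membranes under stress, had 10746 and 13163 FPKM at 37°C, against 10.9 and 20.5 FPKM at 25°C, a change of 9.58 ± 0.33. At 37°C only *TDH3*, of glycolysis, had a higher mean level among the transcripts of all lists. *SSA4* (YER103W, chromosome V, 364589 to 366517), the heat-inducible cytosolic Hsp70, had 4846 and 4409 FPKM at 37°C, against 13.1 and 16.2 FPKM at 25°C, a change of 8.30 ± 0.18. These 3 transcripts were scarce at 25°C, and *HSP26* was the most variable there, at 4.03 and 10.3 FPKM.

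The rest of the 12 largest rises covered metabolism, wall and less known proteins. *DDR2*, a multistress gene, had 102 and 142 FPKM at 37°C, against 1.42 and 1.39 FPKM at 25°C and *SOL4*, which encodes a 6-phosphogluconolactonase, had 169.9 and 198 FPKM at 37°C, against 2.69 and 2.55 FPKM at 25°C. *ADE17* (YMR120C, chromosome XIII, 507502 to 509280), whose enzyme closes the purine ring, had 415 and 429.6 FPKM at 37°C, against 7.38 and 7.02 FPKM at 25°C, a change of 5.87 ± 0.093. *PIR3*, a cell wall glycoprotein, had 79.8 and 74.4 FPKM at 37°C, against 1.8 and 1.31 FPKM at 25°C. The ribosome-associated protein gene *TMA10* changed by 6.03 ± 0.17, *RTC3* by 5.55 ± 0.12, *GPM2*, a relative of phosphoglycerate mutase, by 5.83 ± 0.10, and *YJL045W*, a minor form of succinate dehydrogenase, by 5.53 ± 0.12. *HSP82*, described with its family, closes the set at 5.41. Across the 12, edgeR adjusted p lay between 5.64e-10 and 3.25e-08. A call and no overlap between temperatures were conditions for entering the 12, and 5129 of all 5131 called transcripts did not overlap.

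**Figure D3:**
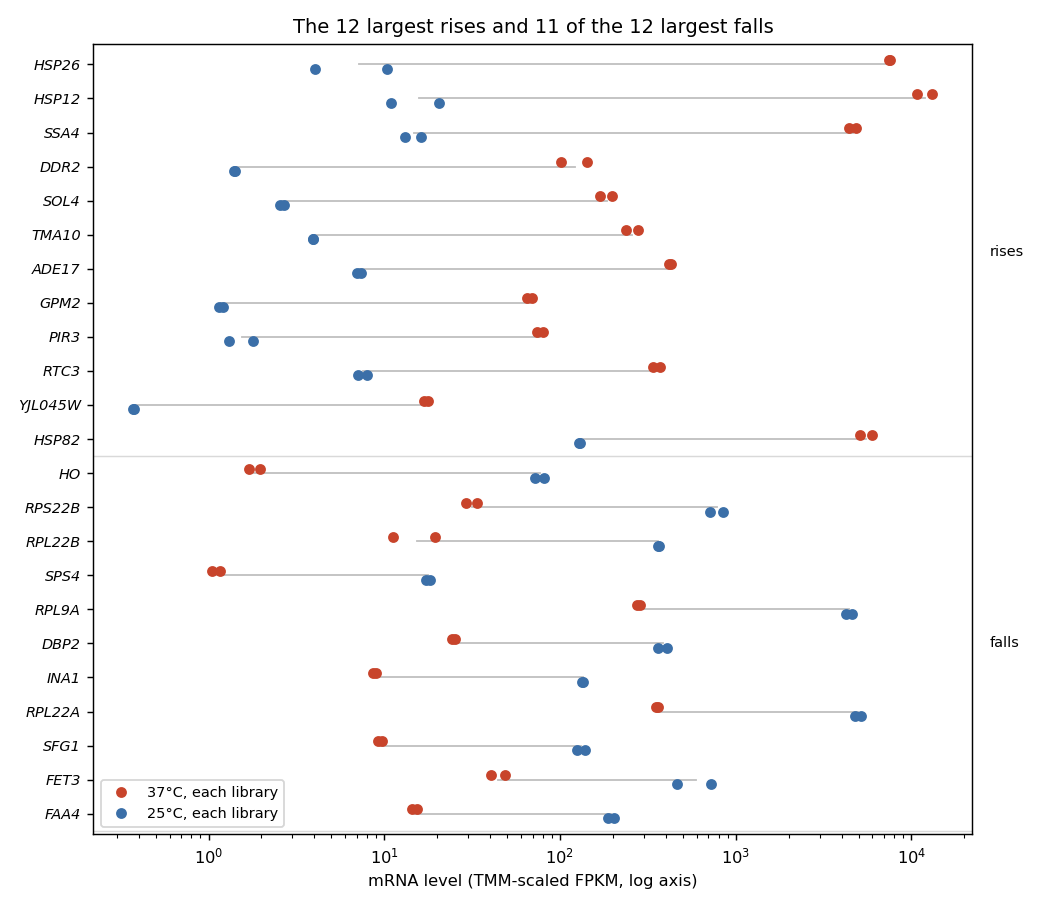
mRNA levels (x axis, TMM-scaled FPKM, log axis) of the 12 largest rises and 11 of the 12 largest falls among called transcripts of at least 10 CPM on average, with 1 point per library and grey lines joining the means. The 2 libraries of a temperature mostly coincide, and those of *HSP26* (4.03 and 10.3 FPKM) and *HSP12* (10.9 and 20.5 FPKM) at 25°C lie farthest apart.

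Hsp70s are ATP-driven chaperones that bind short exposed stretches of proteins. In the cytosolic Hsp70 system 10 of the 11 genes rose and 1 fell, with a median of 1.36 against 0.0096 over all transcripts. The family splits by its level before the shift. *SSA2*, the constitutive form, had 6837 and 5824 FPKM at 37°C, against 3577 and 3184 FPKM at 25°C, a change of only 0.90 ± 0.14 (edgeR adjusted p = 0.000245). *SSA1* had 5179 and 4373 FPKM at 37°C, against 216 and 174 FPKM at 25°C, a change of 4.62 ± 0.18, and *SSA3* had 833 and 673 FPKM at 37°C, against 17 and 18.9 FPKM at 25°C, a change of 5.39 ± 0.15. The levels of *SSA4* and *SSA1* thus overlapped at 37°C, although *SSA4* was the scarcer by far at 25°C. *SSA1* and *SSA2* are nearly identical, and RSEM divides the reads they share. Summed, the pair changed by 1.65 ± 0.15 (edgeR adjusted p = 4.44e-06). The nucleotide exchange factors showed the same split, with *SSE2* at 211 and 207 FPKM at 37°C, against 13 and 11.3 FPKM at 25°C and its close relative *SSE1* at 2881 and 2537 FPKM at 37°C, against 1031 and 898 FPKM at 25°C. Of the J-domain partners, *SIS1* rose by 1.36 ± 0.10, more than *SSA2*, and *YDJ1* by 0.65 ± 0.089, less than *SSA2*. The faller was *SNL1*, a membrane-bound Hsp70 cofactor, at -1.25 ± 0.082.

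In the Hsp90 system 8 of 11 genes rose and 3 fell (median 1.52). Hsp90 finishes the folding of kinases and other clients with a circle of cochaperones. *HSP82* (YPL240C, chromosome XVI, 96496 to 98625), the inducible Hsp90, had 5952 and 5064 FPKM at 37°C, against 131 and 128 FPKM at 25°C, a 42.5-fold rise, and *HSC82*, the constitutive Hsp90, had 5844 and 5011 FPKM at 37°C, against 1927 and 1865 FPKM at 25°C, a 2.86-fold rise. At 37°C the levels of these near-identical genes overlapped, while at 25°C *HSC82* stood far above *HSP82*. Summed, they changed by 2.45 ± 0.14. The cochaperones *CPR6* (3.86 ± 0.11), *AHA1* (2.81 ± 0.086), *STI1* (2.68 ± 0.11) and *HCH1* (2.32 ± 0.084) rose by more than 4-fold. *CDC37*, the kinase-specific cochaperone, rose by 1.01 ± 0.062 and *SBA1*, the p23 homologue, by 0.75 ± 0.080. Not all cochaperones followed. *PPT1*, the phosphatase that acts on Hsp90, fell with 36.7 and 34.3 FPKM at 37°C, against 131 and 143 FPKM at 25°C, and *CNS1* (-0.75 ± 0.11) and *CPR7* (-0.27 ± 0.061) also fell. Scaled to the total count alone, 9 of the 11 genes were called higher and only 1 lower.

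All 6 genes of the disaggregase, small heat shock protein and sorting factor list rose at least 2-fold (median 3.75). *HSP104*, the disaggregase that pulls proteins out of aggregates, had 2802 and 2677 FPKM at 37°C, against 95.4 and 89.4 FPKM at 25°C, a change of 4.89 ± 0.14. *HSP42*, the other small heat shock protein, had 356 and 335 FPKM at 37°C, against 17.2 and 12.5 FPKM at 25°C. *HSP26*, lower than *HSP42* in both libraries at 25°C, was far higher than it at 37°C. *BTN2* and *CUR1*, which sort misfolded proteins into deposits, rose by 1.93 ± 0.11 and 1.46 ± 0.092.

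Organelle chaperones rose too. In mitochondria 7 of 9 genes rose and 1 fell (median 1.25). *HSP78*, the matrix disaggregase, had 573 and 528 FPKM at 37°C, against 32.3 and 30 FPKM at 25°C, a change of 4.14 ± 0.11. The 2 parts of the chaperonin cage moved alike, *HSP60* with a change of 2.44 ± 0.14 and *HSP10* with 2.66 ± 0.089. *MGE1*, the nucleotide exchange factor of the matrix Hsp70, fell by 0.76 on the log2 scale. In the endoplasmic reticulum 11 of 12 genes rose and none fell (median 1.27). *KAR2*, the Hsp70 of that compartment, had 3703 and 3322 FPKM at 37°C, against 741 and 678 FPKM at 25°C, and *ERO1*, the oxidase that feeds disulfides to *PDI1*, had 734 and 675 FPKM at 37°C, against 129.7 and 125 FPKM at 25°C. *PDI1* itself rose by 1.33 ± 0.13, and *EPS1*, a membrane-bound relative, was the 1 gene not called (-0.017 ± 0.066, edgeR adjusted p = 0.824).

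Chaperones that serve newly made proteins went the other way. All 7 genes of the ribosome-associated list fell, 6 of them at least 2-fold (median -1.84). *SSB1*, the Hsp70 that meets nascent chains at the ribosome, had 347 and 297 FPKM at 37°C, against 4375 and 3969 FPKM at 25°C, a 13-fold fall (log2 change -3.70 ± 0.13, edgeR adjusted p = 1.05e-08), and its copy *SSB2* had 257 and 224 FPKM at 37°C, against 2389 and 2072 FPKM at 25°C. Summed, the pair changed by -3.51 ± 0.14. Their partners *ZUO1* (-1.84 ± 0.091) and *SSZ1* (-1.86 ± 0.10) and the nascent chain complex genes *EGD1* (-1.61 ± 0.13) and *EGD2* (-1.77 ± 0.11) fell by similar amounts. At 25°C *SSB1* was above *SSA2* and every other Hsp70 gene of the lists in both libraries. At 37°C it lay below *SSA1*, *SSA2*, *SSA3*, *SSA4*, *SSE1* and the organelle Hsp70 genes *KAR2* and *SSC1*. It also lay below the J-domain gene *SIS1* there.

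The cytosolic chaperonin, which folds actin and tubulin, and prefoldin, which hands these proteins to it, mostly changed by less than 2-fold. Of 14 genes 12 were called lower and none higher, with a median of -0.41 that turned to 0.14 when scaled to the total count alone. *CCT5* had 259.8 and 243 FPKM at 37°C, against 286 and 296 FPKM at 25°C (-0.21 ± 0.072, or 0.34 scaled to the total count alone, and not called without replicate 2 at 37°C, -0.14, or replicate 2 at 25°C, -0.19). *CCT3* changed by -0.56 ± 0.076, a call lost when scaled to the total count alone. The largest change was of the spliced form of the prefoldin gene *GIM5*, the 1 member that fell at least 2-fold, with 25.5 and 15 FPKM at 37°C, against 43.5 and 63.3 FPKM at 25°C (-1.39 ± 0.28, edgeR adjusted p = 0.00129, or -0.56 with both forms summed). Another prefoldin gene, *PAC10*, fell by 0.97 on the log2 scale, with 77.5 and 80.8 FPKM at 37°C, against 153 and 156 FPKM at 25°C.

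**Figure D4:**
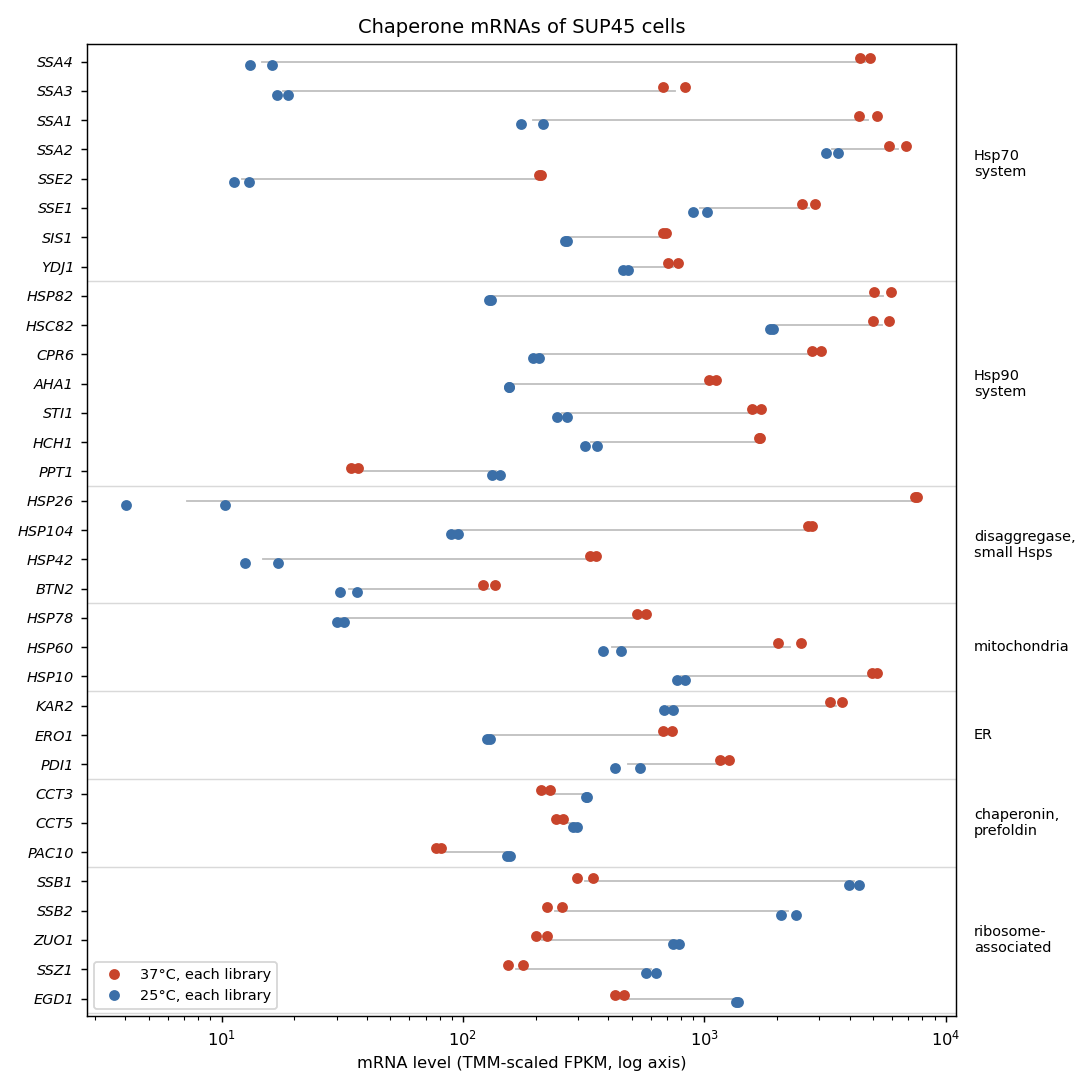
mRNA levels (x axis, TMM-scaled FPKM, log axis) of chaperone genes (rows, grouped by system) in *SUP45* cells at 37°C and 25°C, with 1 point per library and grey lines joining the means. Inducible forms such as *SSA4*, *SSE2* and *HSP82* start far to the left of their constitutive relatives at 25°C, and the ribosome-associated genes at the bottom lie to the left at 37°C.

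By regulator, all 18 genes of a list of core Hsf1 targets rose, 14 at least 2-fold (median 2.12). The list shares most members with the chaperone lists. Its smallest rises were of *MBF1* (0.41 ± 0.10), *FES1* (0.60 ± 0.093) and *YDJ1*. All 18 genes of the Msn2/4 list rose as well, by 3.11 (*RTN2*) or more (median 4.35, against 15.2% of all transcripts that rose 2-fold). *PNC1*, the nicotinamidase, had 1583 and 1609 FPKM at 37°C, against 90.4 and 59.9 FPKM at 25°C, a change of 4.41 ± 0.19. *TFS1*, an inhibitor of carboxypeptidase Y, had 495 and 509 FPKM at 37°C, against 15.2 and 12.9 FPKM at 25°C, *ALD3*, an aldehyde dehydrogenase, had 183 and 176 FPKM at 37°C, against 5.23 and 5.48 FPKM at 25°C, and *GRE3*, an aldose reductase, had 821 and 801 FPKM at 37°C, against 44 and 39.8 FPKM at 25°C. Members of both lists were picked as textbook targets of these factors, so their direction is no independent evidence.

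Genes of trehalose, a sugar that protects proteins in heat, and of glycogen rose on both the making and the breaking side. Of 18 genes 17 rose and 1 fell (median 2.21). On the making side *TPS1*, the trehalose phosphate synthase, had 396 and 385 FPKM at 37°C, against 98.2 and 75.3 FPKM at 25°C, *TSL1*, a regulatory subunit, had 139 and 132 FPKM at 37°C, against 8.5 and 5.95 FPKM at 25°C, and *GSY2*, the main glycogen synthase, had 81 and 77.8 FPKM at 37°C, against 19.7 and 16.5 FPKM at 25°C. *UGP1*, which makes the UDP-glucose that both sugars are built from, rose by 1.05 ± 0.12. On the breaking side *NTH1*, neutral trehalase, had 282 and 262 FPKM at 37°C, against 43.3 and 35.8 FPKM at 25°C, and *GPH1*, glycogen phosphorylase, had 157 and 133 FPKM at 37°C, against 4.4 and 2.48 FPKM at 25°C. The phosphoglucomutase genes parted. *PGM2* changed by 4.23 ± 0.12 and *PGM1* by -0.92 ± 0.071.

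Of 20 antioxidant genes 15 rose, 4 fell and 1 was not called (median 1.24). *PRX1*, the mitochondrial peroxiredoxin, had 353 and 373 FPKM at 37°C, against 28.8 and 23.3 FPKM at 25°C, and *CTT1*, the cytosolic catalase, had 43.1 and 47.5 FPKM at 37°C, against 4.76 and 4.01 FPKM at 25°C. *AHP1* and *TSA1*, the most abundant peroxiredoxin transcripts, rose by 2.79 ± 0.19 and 1.56 ± 0.11. Paralogs parted here as well. *TRX2*, a thioredoxin, rose by 1.74 ± 0.084, while *TRX1* fell, with 291 and 336 FPKM at 37°C, against 617 and 639 FPKM at 25°C, and so did the thioredoxin reductase gene *TRR1* (-0.68 ± 0.091).

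The proteasome moved as a block. All 32 subunit genes rose, within a narrow range of 0.42 to 1.17 (median 0.92), where 38.4% of all transcripts were called higher. *RPN12*, a lid subunit, had 325 and 336 FPKM at 37°C, against 144 and 149.99 FPKM at 25°C, *PRE1*, a core subunit, had 553 and 565 FPKM at 37°C, against 242 and 263 FPKM at 25°C, and *PUP2*, also of the core, had 519.7 and 514 FPKM at 37°C, against 265 and 273 FPKM at 25°C. *RPN4*, the transcription factor of these genes, rose by 0.78 ± 0.061. In the ubiquitin pathway 15 of 16 genes rose and 1 fell (median 0.88). *UBI4*, the polyubiquitin gene, had 1653 and 1486 FPKM at 37°C, against 96.1 and 83.2 FPKM at 25°C, a 17.5-fold rise, and the conjugating enzyme genes *UBC5* and *UBC4* rose by 1.86 ± 0.11 and 1.10 ± 0.075. *RSP5*, an essential ubiquitin ligase, was the faller (-0.31 ± 0.076). Scaled to the total count alone, all 16 genes were called higher, *RSP5* among them.

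Cytosolic ribosomal proteins had the lowest median of the 30 lists. Of 137 genes 136 fell, all 136 at least 2-fold, where 14.1% of all transcripts fell that much, and the median was -3.25. The median gene had 404 FPKM at 37°C and 4028 FPKM at 25°C. The fall was even, with 99 genes down 8-fold or more, a lower quartile of -3.41 and an upper quartile of -2.95, and medians of -3.25 for large-subunit, -3.26 for small-subunit and -3.30 for stalk genes. *RPS31*, which encodes a ribosomal protein fused to ubiquitin, had 1134 and 1158 FPKM at 37°C, against 11249.8 and 12941 FPKM at 25°C, and *RPL41A* had 1264 and 1398 FPKM at 37°C, against 7765 and 10341 FPKM at 25°C. The 1 gene that did not fall was *RPL15B*, with 75.7 and 85.2 FPKM at 37°C, against 65.7 and 66 FPKM at 25°C (0.29 ± 0.073, edgeR adjusted p = 0.00528), a weakly expressed copy of *RPL15A*, which had 1031 and 984 FPKM at 37°C, against 7257 and 7879 FPKM at 25°C. Summed, the pair changed by -2.79 ± 0.11. The next smallest changes were of *RPS30A* (-1.81), *RPS9A* (-1.82) and *RPL18B* (-1.86).

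Paralogs of ribosomal proteins fell by unequal amounts in several pairs, and for *RPS22* and *RPL22* the order turned on how spliced and unspliced forms were counted. The spliced form of *RPS22B* (YLR367W, chromosome XII, 856442 to 857317) had 33.9 and 29 FPKM at 37°C, against 710.1 and 847 FPKM at 25°C, a change of -4.63 ± 0.13, and *RPS22A* changed by -3.38 ± 0.11. The spliced form of *RPL22B* had 11.2 and 19.4 FPKM at 37°C, against 364 and 361 FPKM at 25°C (-4.58 ± 0.21), and that of its more abundant copy *RPL22A* had 349.7 and 360.3 FPKM at 37°C, against 4764 and 5148 FPKM at 25°C (-3.80 ± 0.11). With the counts of both forms summed, *RPS22B* changed by -1.59, *RPL22B* by -1.41 and *RPL22A* by -3.26, so that the B copies then fell by less than the A copies. *RPL9A* changed by -3.97 ± 0.11 and *RPL9B* by -2.21 ± 0.080. Differences within a pair were not tested, and the copies share reads.

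Unspliced forms, which the files count apart, fell far less than spliced ones. Of 101 unspliced ribosomal protein transcripts 97 fell, 1 rose and 3 were not called, with a median of -0.78, while the spliced forms of the same genes had a median of -3.27 and fell further in all 101. With both forms summed per gene the median of all ribosomal protein genes was -3.07. Unspliced molecules made up 9.78 and 10.9% of the transcripts of these genes at 37°C, against 2.37 and 2.36% at 25°C. For *RPL22B* the unspliced share was 88.6 and 84.1% at 37°C, against 19.6 and 21.8% at 25°C, and for *RPS22B* it was 84.8 and 86.3% at 37°C, against 35.2 and 30.7% at 25°C. At 37°C the unspliced form was thus the main form of both. For *DBP2*, a DEAD-box RNA helicase gene outside the ribosome with a long intron, it was 31.6 and 33.5% at 37°C, against 4.56 and 4.97% at 25°C. Reads in exons fit both forms, so these shares are RSEM's estimates. Over the 224 unspliced transcripts of other genes the median change was 0.097.

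The factory for ribosomes fell with its products. All 59 ribosome biogenesis genes fell, 55 at least 2-fold (median -1.81). *NSR1*, the nucleolin-like protein, had 74.9 and 74.7 FPKM at 37°C, against 623 and 631 FPKM at 25°C, a change of -3.07 ± 0.079, and *HAS1*, a helicase of both subunits' assembly, had 29.5 and 30.5 FPKM at 37°C, against 183 and 189 FPKM at 25°C. *NOP10* and *NHP2*, which guide pseudouridine formation in rRNA, both changed by -1.88. All 19 genes of RNA polymerases I and III fell (median -1.23), led by the largest subunits of polymerase I, *RPA135* (-2.25 ± 0.087) and *RPA190* (-2.14 ± 0.088). Subunits shared by the 2 enzymes fell by 1.74 (*RPC40*) and 0.85 (*RPC19*) on the log2 scale.

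All 31 translation factor genes fell, 25 at least 2-fold (median -1.44). *YEF3*, the fungal elongation factor 3, had 721 and 636 FPKM at 37°C, against 5352 and 4813 FPKM at 25°C, a change of -2.91 ± 0.14, and *TEF4*, a subunit of the exchange factor of eEF1A, had 335 and 294 FPKM at 37°C, against 2104 and 2063 FPKM at 25°C. eEF1A, the carrier of aminoacyl-tRNA, has 2 near-identical genes. *TEF2* had 8081 and 7086 FPKM at 37°C, against 16006 and 14923 FPKM at 25°C and *TEF1* had 2567 and 2102 FPKM at 37°C, against 10128 and 9735 FPKM at 25°C, and their sum changed by -1.35 ± 0.14. The eEF2 genes *EFT1* and *EFT2* summed to a change of -2.69 ± 0.15, and the eIF4A genes *TIF1* and *TIF2* to -2.21 ± 0.11. Initiation factors covered a wide span, from *TIF2* at -2.57 and *PAB1*, the poly(A)-binding protein, at -2.08 to *TIF4632*, a minor eIF4G, at -0.52.

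*SUP45* (YBR143C, chromosome II, 530869 to 532182), the gene by which the strains of the study differ, fell along with these factors. It had 216 and 219 FPKM at 37°C, against 489.7 and 524 FPKM at 25°C, a change of -1.22 ± 0.074 (edgeR adjusted p = 3.02e-07). Its partner in termination, the eRF3 gene *SUP35*, had 171 and 154 FPKM at 37°C, against 324 and 299.8 FPKM at 25°C, a change of -0.94 ± 0.084, and *RLI1*, the factor that recycles ribosomes, changed by -1.24 ± 0.071. In *sup45-ts* cells *SUP45* had 136 and 133 FPKM at 37°C, against 488 and 505 FPKM at 25°C. In both strains the libraries at 37°C lay below those at 25°C.

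The 12 largest falls, ranked on spliced or intronless transcripts, held ribosomal protein genes, among them *RPS22B*, *RPL22B*, *RPL9A* and *RPL22A*, then *DBP2* (-3.96 ± 0.20, or -3.25 with both forms summed) and 6 others of mixed function. *HO* (YDL227C, chromosome IV, 46271 to 48031), whose endonuclease starts mating-type switching, had 1.95 and 1.69 FPKM at 37°C, against 81 and 72.5 FPKM at 25°C, a 42-fold fall and the largest of the 12 (edgeR adjusted p = 1.03e-09). *SPS4*, a gene first found in sporulation, had 1.16 and 1.04 FPKM at 37°C, against 17.3 and 18.1 FPKM at 25°C, and *INA1*, a membrane protein gene, had 8.95 and 8.69 FPKM at 37°C, against 134 and 135 FPKM at 25°C. *SFG1*, a transcription factor of surface growth, had 9.7 and 9.26 FPKM at 37°C, against 139 and 125 FPKM at 25°C, and *FAA4*, which activates long-chain fatty acids, had 15.4 and 14.3 FPKM at 37°C, against 188 and 202 FPKM at 25°C. *FET3*, the ferroxidase of iron uptake, had 48.7 and 40.6 FPKM at 37°C, against 728 and 461 FPKM at 25°C, with the widest error of those shown (log2 change -3.73 ± 0.46, edgeR adjusted p = 5.24e-05).

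In central carbon metabolism the lists as wholes hardly moved, but isoenzymes parted. Of 21 glycolysis and fermentation genes 7 rose, 8 fell and 6 were not called, where 38.4% of all transcripts were called higher and 37.4% lower. The median of -0.11 was 0.0026 with upper quartile scaling, 0.44 scaled to the total count alone and 0.044 without replicate 1 at 25°C. Among the sugar kinases *GLK1* had 604 and 568 FPKM at 37°C, against 35.3 and 19.6 FPKM at 25°C and *HXK1* had 152 and 144 FPKM at 37°C, against 11.2 and 5.18 FPKM at 25°C, while *HXK2*, the main hexokinase in glucose, fell, with 555 and 495 FPKM at 37°C, against 948 and 809 FPKM at 25°C. At 37°C both *GLK1* libraries lay above both *HXK2* libraries. *TDH1*, the stress form of glyceraldehyde-3-phosphate dehydrogenase, had 316 and 308 FPKM at 37°C, against 27.6 and 19.5 FPKM at 25°C, and *TDH3*, the main form, had 17898 and 15992 FPKM at 37°C, against 20235 and 17936 FPKM at 25°C and was not called (-0.17 ± 0.16, edgeR adjusted p = 0.357, or 0.38 scaled to the total count alone, where it was called). Likewise *ENO1* rose by 2.36 ± 0.20, and *ENO2* was not called (-0.27 ± 0.17, edgeR adjusted p = 0.172, or 0.28 scaled to the total count alone). Summed over near-identical copies, the *TDH* genes changed by -0.21 ± 0.16 (edgeR adjusted p = 0.27) and the *ENO* genes by -0.050 ± 0.16 (edgeR adjusted p = 0.79), neither of them called. *PDC1*, pyruvate decarboxylase, fell, with 7331 and 6074 FPKM at 37°C, against 15608 and 13183 FPKM at 25°C, and *PGK1*, phosphoglycerate kinase, rose by 0.79 ± 0.15.

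In the TCA cycle and respiration 12 of 44 genes rose, 19 fell and 13 were not called (median -0.067). Over all transcripts 38.4% were called higher and 37.4% lower. With upper quartile scaling 16 of the 44 were called higher and 16 lower (median 0.049). Scaled to the total count alone, 29 were called higher and 6 lower (median 0.48), so most falls were not kept with that scaling. Genes of the first steps of the cycle rose, *CIT1* (1.43 ± 0.083), *ACO1* (0.94 ± 0.13), *IDH1* (1.29 ± 0.11) and *IDH2*, which had 539.8 and 486 FPKM at 37°C, against 183 and 145 FPKM at 25°C. The rise was not confined to these steps. Later in the cycle *LSC2* changed by 1.64 and *SDH4* by 1.16, while *KGD1*, *KGD2*, *LSC1* and *SDH1* were not called. The 19 fallers were all of the respiratory chain or the ATP synthase, such as *ATP1* (-1.11 ± 0.10) and *COX4* (-1.21 ± 0.057). The 2 forms of subunit 5 of cytochrome oxidase parted. *COX5A*, the aerobic form, fell by 0.87 on the log2 scale. *COX5B*, the hypoxic form, was nearly all counted as unspliced, and that form had 202 and 213 FPKM at 37°C, against 29.1 and 24.7 FPKM at 25°C, a change of 2.95 ± 0.082. *CYC1*, cytochrome c, had 578 and 628 FPKM at 37°C, against 694 and 672 FPKM at 25°C (-0.18 ± 0.073, or 0.37 scaled to the total count alone), a call that most alternatives did not keep, among them leaving out any 1 of the 4 libraries (-0.22 to -0.11).

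Of 15 hexose transporter and sensor genes 9 rose, 4 fell and 2 were not called. The list median of 0.56 rests on scarce transcripts, and it was -0.14 without those under 10 CPM. The fallers were main glucose carriers, *HXT2* (18.1 and 14.6 FPKM at 37°C, against 121 and 127 FPKM at 25°C), *HXT3* (94.1 and 75.2 FPKM at 37°C, against 511 and 409.6 FPKM at 25°C), *HXT4* (-2.51 ± 0.24) and *HXT1* (-0.56 ± 0.077, not called when scaled to the total count alone). The risers at more than 10 FPKM were *HXT5* (16.2 and 17.6 FPKM at 37°C, against 0.97 and 0.933 FPKM at 25°C), a carrier known from slow growth, *HXT7* (1.87 ± 0.27, or 1.72 ± 0.25 summed with its near-identical copy *HXT6*) and the 2 sensors *SNF3* (0.56 ± 0.079) and *RGT2* (0.27 ± 0.074).

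The cell wall list split, with 19 of 33 genes up, 11 down and 3 not called (median 0.66). Among the risers were the kinase gene *SLT2*, with 263 and 255 FPKM at 37°C, against 71.8 and 73.1 FPKM at 25°C, and *RLM1*, a transcription factor that Slt2 acts on in the wall integrity pathway, with 38.5 and 38.5 FPKM at 37°C, against 17 and 15.1 FPKM at 25°C. *PRM5* (3.21 ± 0.087), *PST1* (2.88 ± 0.13), *KDX1* (2.15 ± 0.11) and *CRH1* (0.89 ± 0.11), known targets of that pathway, rose too, but other genes tied to it did not: *CIS3* changed by -1.64 and *FKS1* by -0.34, and *PIR1* was not called (-0.091). The wall proteins *SPI1* and *SED1* rose by 4.54 ± 0.12 and 2.22 ± 0.19. The fallers included *CCW12*, the highest of the list, with 3949.7 and 4285 FPKM at 37°C, against 10376 and 8748 FPKM at 25°C, *CWP2*, with 601 and 695 FPKM at 37°C, against 1630.3 and 1112 FPKM at 25°C, the glucan remodelling gene *GAS1* (-1.44 ± 0.12) and the glucanase family gene *SCW10*, with the largest fall (-2.03). Abundant and scarce members lay on both sides. The abundant *HSP150* rose by 1.60 and *BGL2* by 0.66, and the scarce *TIR1* changed by -1.45. *CWP1*, the sister of *CWP2*, rose by 1.77 ± 0.16.

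Of 23 ergosterol genes 20 fell, 1 rose and 2 were not called, with a median of -0.46 that turned to 0.088 scaled to the total count alone. *ERG11*, lanosterol demethylase, had 461 and 391 FPKM at 37°C, against 1234 and 1155 FPKM at 25°C, and *ERG3* and *ERG2*, of the last steps, fell by 1.19 and 0.89 on the log2 scale. Among amino acid biosynthesis genes 37 of 55 fell, 10 rose and 8 were not called (median -0.59). Scaled to the total count alone, 23 were called higher and 23 lower (median -0.039). The 3 largest falls were of branched-chain genes, with *ILV3* at 98.5 and 91.5 FPKM at 37°C, against 874 and 777 FPKM at 25°C, *LEU1* at -2.68 ± 0.11 and *BAT1* at -2.65 ± 0.10. Next came *ARO4* (-2.47), of aromatic synthesis, *LYS20* (-2.39) and *LYS4* (-2.10), of lysine synthesis, and *GDH1* (-2.09), which makes glutamate. The abundant branched-chain gene *ILV5* changed by -1.69 ± 0.10. *ASN1*, asparagine synthetase, fell by 0.84 on the log2 scale, and *GCN4*, the activator of these genes, had 378 and 438 FPKM at 37°C, against 582 and 648 FPKM at 25°C. The risers of at least 2-fold were *HIS5* (1.51 ± 0.064), *HIS4* (1.46 ± 0.073), *MET17* (1.25 ± 0.073) and *MET3* (1.19 ± 0.11).

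Of 18 purine synthesis genes 8 rose, 7 fell and 3 were not called (median 0.046, or -0.056 without replicate 2 at 25°C), where 38.4% of all transcripts were called higher and 37.4% lower. These counts are not read as a trait of the list. On the way to IMP single genes changed in either direction, with *ADE4*, of the first step, at 0.89 ± 0.071, *ADE1* at 0.81 ± 0.056, *ADE6* at -0.94 ± 0.086 and *ADE5,7* at -0.41 ± 0.074. *ADE17* stands among the largest rises, while its copy *ADE16* rose by 0.73 ± 0.082 and the pair summed to 2.08 ± 0.084. *SHM2*, which makes 1-carbon units from serine, had 1025 and 1002 FPKM at 37°C, against 144 and 116 FPKM at 25°C, and *MTD1*, which oxidises them, had 236 and 259.9 FPKM at 37°C, against 28.3 and 32.6 FPKM at 25°C. On the branch from IMP to AMP *ADE12* rose by 1.04 ± 0.076, and *ADE13*, which also acts before IMP, was not called (-0.084). The 4 genes of the branch to GMP in the list fell. *IMD4*, an IMP dehydrogenase, had 69.7 and 65.5 FPKM at 37°C, against 726 and 790.3 FPKM at 25°C, *IMD2* changed by -3.27 ± 0.12, *IMD3* by -2.62 ± 0.087, and *GUA1*, GMP synthase, had 92.9 and 87.5 FPKM at 37°C, against 673 and 663 FPKM at 25°C. The strain carries a mutant *ADE2*, whose transcript rose by 1.13 ± 0.077.

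Most genes of cell division fell. Of 26 cyclin and cell cycle genes 22 fell, where 37.4% of all transcripts did, 2 rose and 2 were not called (median -0.88). G1 and S phase genes were among them, *CLB6* with 2.95 and 2.57 FPKM at 37°C, against 19.9 and 22 FPKM at 25°C, *CLN1* with 14.3 and 12.6 FPKM at 37°C, against 81.8 and 73 FPKM at 25°C and *RNR1*, ribonucleotide reductase, with 68.2 and 57.9 FPKM at 37°C, against 230.3 and 205 FPKM at 25°C. So were the mitotic *CLB2* (-2.28 ± 0.061), *CLB1* (-2.09 ± 0.081) and *CDC5* (-1.59 ± 0.059). The risers were *CDC28*, the kinase itself (0.60 ± 0.053), and *SWI4* (0.45 ± 0.059). Scaled to the total count alone, 13 of the 26 genes were called lower and 5 higher (median -0.33). All 10 histone genes fell (median -2.11), with *HHF1* at 272 and 299 FPKM at 37°C, against 2090.3 and 2459.7 FPKM at 25°C and its copy *HHF2* at 601 and 693 FPKM at 37°C, against 1650.5 and 2016 FPKM at 25°C, and *HTA2*, of histone H2A, changed by -2.86 ± 0.10. Cells were not synchronised, and fewer cells in a phase and less RNA per cell in that phase cannot be told apart.

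Transcripts of the regulators themselves had a median change near 0. Of 16 genes 6 rose, 3 of them at least 2-fold, 2 fell and 8 were not called (median 0.060, or -0.0018 without replicate 2 at 25°C). Over all transcripts 38.4% were called higher, so the count of risers is not read as a trait of the list. Scaled to the total count alone, 14 were called higher and 1 lower (median 0.61, against 0.56 over all transcripts). *HSF1* had 49 and 50 FPKM at 37°C, against 28.6 and 26.6 FPKM at 25°C, a change of 0.84 ± 0.058. *MSN2* had 34.1 and 32.7 FPKM at 37°C, against 39.3 and 33.6 FPKM at 25°C and *MSN4* had 24.3 and 21.9 FPKM at 37°C, against 26.4 and 19.5 FPKM at 25°C, and neither was called (edgeR adjusted p = 0.163 and 0.939), although all 18 genes of their list rose. *YAP1*, of the oxidative stress response, rose by 1.09 ± 0.069. *FHL1*, which binds ribosomal protein promoters, fell by 0.94 on the log2 scale, and its partner *IFH1* was not called (0.11 ± 0.068). *HAC1*, the factor of the unfolded protein response, is switched on by splicing of its mRNA outside the nucleus. Its spliced form had 16.5 and 13 FPKM at 37°C, against 3.51 and 2.34 FPKM at 25°C, a change of 2.33 ± 0.42 (edgeR adjusted p = 0.000679), and its unspliced form changed by 0.33 ± 0.12, while the sum of both changed by 0.33 (edgeR adjusted p = 0.0298). The unspliced form made up 98 and 98.7% at 37°C, against 99.5 and 99.7% at 25°C of the *HAC1* transcripts.

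Ribosome footprints from the same strain and temperatures gave a readout from other libraries. The tables combine replicates, so each temperature is 1 value with no error and no test. Across the 5207 transcripts with at least 10 coding-sequence footprints in both tables, the footprint log2 ratio and the mRNA log2 change had a Spearman's rho of 0.934 and a Pearson's r of 0.946, as a description across genes that share libraries. The median footprint ratio over all 5207 was 0.53, and 72.4% of them lay above 0. The ratio carries no TMM scaling, so counts and list values are to be read against that median. Of 624 transcripts called at least 2-fold higher in mRNA 619 had a footprint ratio above the median, and of 772 called at least 2-fold lower 768 had one below it. *HSP26* had 12764 RPKM at 37°C and 5.36 RPKM at 25°C and *HSP104* had 4695 RPKM at 37°C and 64.1 RPKM at 25°C. *HO* had 0.176 RPKM at 37°C and 69.5 RPKM at 25°C, on 5 and 2053 footprints. The Msn2/4 genes had a median footprint ratio of 5.66 over 17 genes, the proteasome 1.48 over 32, and the ribosomal proteins -2.65 over 137. *GCN4*, which is regulated in translation, had 72.3 RPKM at 37°C and 61.7 RPKM at 25°C, a log2 ratio above 0 but below the median of 0.53. Footprints of near-identical genes may be shared between the copies, as for *TDH1* with 4694 RPKM at 37°C and 4116 RPKM at 25°C and *RPL15B* with 242 RPKM at 37°C and 997 RPKM at 25°C, so no difference between single copies is read from these values, and the ribosomal protein median includes such copies.

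**Figure D5:**
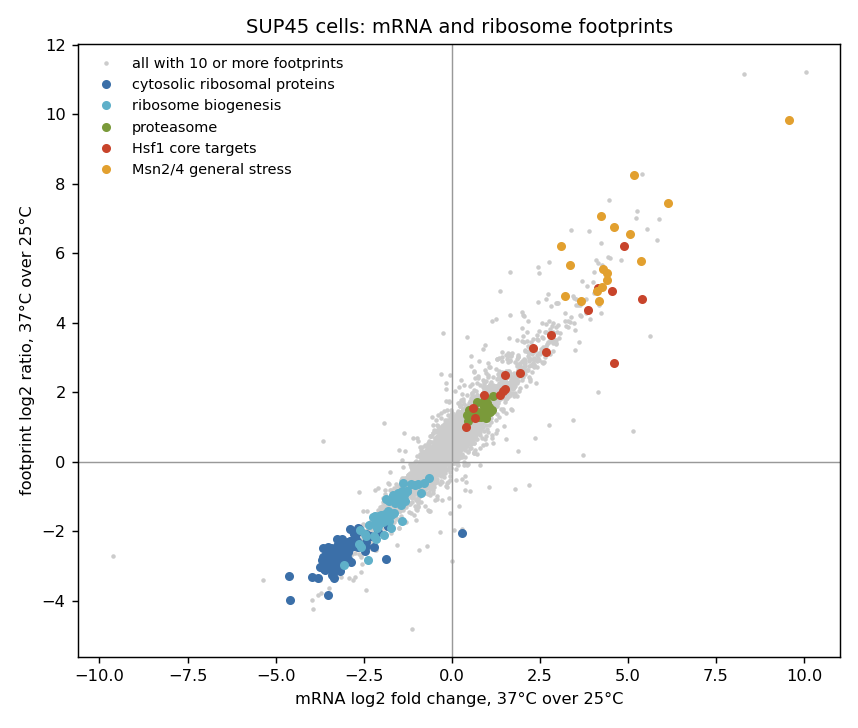
Footprint log2 ratio (y axis, 1 value per transcript from tables of combined replicates) against mRNA log2 fold change (x axis), both 37°C over 25°C in *SUP45* cells, for 5207 transcripts (grey) and 5 gene lists (colours). Ribosomal proteins lie at the lower left and Msn2/4 genes at the upper right, and the cloud passes above the origin with a median footprint ratio of 0.53.

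The heat shift differed between strains for many transcripts. An interaction test of *sup45-ts* against *SUP45* cells called 4746 of 6767 transcripts (70.1%). Of 24 transcripts compared (12 of the largest rises, 11 of the largest falls and *SUP45*), 16 were called, 7 with a larger change in *sup45-ts* cells and 9 with a smaller one, and all 24 moved in the same direction in both strains. All but the *SUP45* gene were picked for their large changes in *SUP45* cells, which the test subtracts. The split into larger and smaller changes is therefore not read as a difference between the strains.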

How the data were processed

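RNA was extracted from clarified lysates, depleted of rRNA, and sequenced as stranded, single-end libraries. The authors aligned the reads with Bowtie and ran RSEM on 6952 transcripts built from S288C R64, with unspliced versions of intron-containing genes. The deposited values are expected counts, RSEM's estimates per transcript, which divide reads shared between paralogs or between spliced and unspliced forms. Strand was kept: *BUD28*, antisense to *RPL22A*, held 101 counts in 1 library and *RPL22A* 204246.

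Expected counts were rounded and all 8 RNA-Seq libraries fitted together in edgeR 4.0.16 (R 4.3.3; TMM, filterByExpr, quasi-likelihood test, Benjamini-Hochberg adjustment, threshold 0.05), 2 replicates in each of 4 groups. Library totals were 107324550 to 153654244. Footprint values are the counts and RPKM of coding sequences that the authors deposited after combining replicates, 1 table per temperature. The test was also run on simulated counts with 193 of 6608 transcripts changed. It recovered 93.7% of 2-fold changes, and 7.04% of its calls were false. Far fewer transcripts changed there than in the data, so the simulation does not cover a turnover of this size.

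Named are the 12 largest called rises and falls of at least 10 CPM without overlap of replicates, for each of 30 lists the 2 members with the largest change and the 2 with the highest level, *SUP45*, and other list members for their role. 1 of the 12 falls is not reported here. Members, lists and rule were chosen with earlier results of these data known. Alternatives were RLE, upper quartile and no scaling, other filters, DESeq2 1.42.0, a replicate block, the *SUP45* libraries alone, counts summed per gene, leaving out each replicate and, added after the data were seen, summed paralogs. Symbols come from the files and coordinates from the RefSeq table of R64, which held 5913 of the 6587 mRNA loci. Other ribosome profiling files and sequences were not used here.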

Additional observations from a re-analysis of the deposited data

Results flagged for a closer look

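For 16 of the 24 transcripts set side by side between strains (the 12 largest rises, 11 of the 12 largest falls and *SUP45*), the heat shift of *sup45-ts* cells differed from that of *SUP45* cells in edgeR's interaction test (adjusted p under 0.05). Values are differences of log2 changes, *sup45-ts* minus *SUP45*. Among the rises, *TMA10* (2.22), *RTC3* (1.33), *DDR2* (1.18), *SSA4* (0.95) and *HSP82* (0.75) rose further in *sup45-ts* cells, and *YJL045W* (-1.88), *GPM2* (-1.11) and *ADE17* (-0.78) rose less. Among the falls, *SPS4* (3.30), *RPL22B* (1.91), *FAA4* (1.74), *INA1* (0.90), *RPL22A* (0.69) and *HO* (0.36) fell less in *sup45-ts* cells. *DBP2* (-1.41) and *SUP45* (-0.66) fell further there. The strains were compared with 2 libraries a group, and 70.1% of all transcripts were called in this test. All but the *SUP45* gene were picked for large changes in *SUP45* cells, which enter these differences, so their sizes and signs are descriptive only.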

How the results depend on the processing

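The counts of calls kept within 1.5 times under most alternatives: without 1 replicate in turn 4680 to 4872 transcripts were called, DESeq2 called 5002 (4970 shared with edgeR), and the 4 *SUP45* libraries alone gave 4991. Scaled to the total count alone, 4307 were called higher and 1218 lower, 2061 at least 2-fold higher and 502 at least 2-fold lower. Without transcripts under 10 CPM, 608 were at least 2-fold higher, since fewer were counted. Scaled to the total count alone, 5 of the 116 transcripts followed through the alternatives turned positive, *CCT5* (0.34), *TDH3* (0.38), *ENO2* (0.28), *CYC1* (0.37) and *SPS1* (0.025). So did the medians of chaperonin and prefoldin (0.14), glycolysis (0.44), the TCA cycle and respiration (0.48) and ergosterol genes (0.088). Other list members named for their role were counted by list only. With that scaling all 16 ubiquitin pathway genes, *RSP5* among them, were called higher. In the Hsp90 system 9 genes were called higher and 1 lower, and in amino acid biosynthesis 23 higher and 23 lower (median -0.039). Upper quartile scaling turned glycolysis (0.0026) and the TCA cycle and respiration (0.049). Medians close to 0 also turned without 1 library, over ranges of -0.26 to 0.044 for glycolysis (positive without the first replicate at 25°C), -0.056 to 0.16 for purine genes and -0.0018 to 0.13 for stress regulators (both negative without the second replicate at 25°C). Without scarce transcripts the hexose transporter median was -0.14 and the MATalpha median 0.21, or 1.51 with at least 10 CPM in 2 libraries, on fewer genes. With a replicate block 5160 were called and no call among the 116 transcripts followed changed. Nothing in the labels ties equal replicate numbers together, and with 2 replicates pairing is not established: deviations of replicate 1 correlated at 0.36 between the *SUP45* groups and at -0.22 to 0.17 between the others. Summing near-identical paralogs, an alternative added after the data were seen, kept the direction of all 18 named members. Depth limits the scarcest transcripts, such as *MF(ALPHA)2*, with 10 counts in its lowest library.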

Other observations

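Several other groups moved, chosen after their values were seen and given without a test of the group. Over all transcripts tested, 38.4% were called higher and 37.4% lower. Since the groups were picked for their values, the counts of their members are descriptive only. All 21 cytosolic aminoacyl-tRNA synthetase genes, which charge tRNAs, were called lower (median -1.62), for example *VAS1* with 177 and 152 FPKM at 37°C, against 656 and 596 FPKM at 25°C. The glycine cleavage genes, another source of 1-carbon units, were called higher, *GCV1* with 554 and 586 FPKM at 37°C, against 21.4 and 19.6 FPKM at 25°C, *GCV2* with 341 and 356 FPKM at 37°C, against 30.5 and 24.8 FPKM at 25°C and *GCV3* with 778 and 899.9 FPKM at 37°C, against 167 and 163 FPKM at 25°C, while *LPD1*, a subunit shared with other complexes, was not called (0.063). The 3 genes of the GABA shunt were called higher, led by *GAD1*, glutamate decarboxylase, with 188 and 180.3 FPKM at 37°C, against 9.39 and 6.75 FPKM at 25°C. All 4 acid phosphatase genes were called lower, among them *PHO5* with 14.2 and 14.6 FPKM at 37°C, against 99.6 and 104 FPKM at 25°C (*PHO11* and *PHO12* share reads), and so were 5 of 6 iron uptake genes, such as *FTR1* with 63.2 and 54.4 FPKM at 37°C, against 386 and 264 FPKM at 25°C, while *FRE2*, a metal reductase gene, was called higher (0.65).

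Of 31 autophagy genes named ATG, also chosen after their values were seen, 28 were called higher, 1 lower and 2 were not called (median 0.99). The share called higher over all transcripts was 38.4%. *ATG8*, which tags the growing autophagosome, had 124 and 130.5 FPKM at 37°C, against 11.8 and 10.9 FPKM at 25°C. Of 6 vacuolar protease genes 5 were called higher (median 1.35), led by *APE1* with 182 and 166 FPKM at 37°C, against 26.8 and 17.3 FPKM at 25°C, with *LAP3* the least of them (0.52), and *APE3* was not called (-0.14). At the plasma membrane *HSP30*, a stress protein, had 53.8 and 62 FPKM at 37°C, against 1.46 and 1.61 FPKM at 25°C, and *PMA1*, the proton pump it is known to restrain, had 1294 and 1059 FPKM at 37°C, against 4587 and 4179.9 FPKM at 25°C. *OLE1*, the fatty acid desaturase, had 41.1 and 40.9 FPKM at 37°C, against 311 and 338 FPKM at 25°C. *ASC1*, a ribosome-bound protein outside the list of ribosomal proteins, had 372 and 302 FPKM at 37°C, against 4189 and 4137 FPKM at 25°C, a log2 change of -3.63, which lies beside the ribosomal protein median of -3.25.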
